A study of Mus musculus with 4 samples.

Results

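The 45 genes described here encode proteins that carry a cell through mitosis: the kinases and cyclins that start it, the kinetochore and the spindle checkpoint, the motors of the spindle, the machinery of cytokinesis, and the factors that end it. They were listed by name with the difference between the genotypes in these same arrays already known, so the genotype values below are a description and carry no test. All 45 had a probe well above background on at least 1 array, out of 20615 named genes and transcripts that did so. Expression was measured on 4 one-colour arrays of cultured primary hepatocytes of C57BL/6 mice, 1 array per group, harvested 24 h after seeding. Cells of each genotype, control and Drp1LiKO, were either left untreated or given 200 μM palmitate. Palmitate is a saturated fatty acid. The sources used here give neither the age of the mice nor the palmitate time of the array cultures, although legends for other hepatocyte experiments name 24 h. Drp1LiKO mice carry a floxed Dnm1l gene, which encodes the mitochondrial fission protein Drp1, and Cre under the albumin promoter, which deletes the gene in hepatocytes. The labels call the controls wild type in 1 field and Drp1flox in another, and the methods describe floxed male littermates. Cells of both genotypes went through the same collagenase perfusion, low-speed pelleting and culture in medium with insulin and serum. No group has a replicate, so no difference could be set against a spread between mice or cultures.

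Most hepatocytes of an adult liver are quiescent. They can re-enter the cell cycle after loss of liver mass, and in culture insulin, serum and growth factors push some of them towards division. Mitotic genes are transcribed in a late wave, in G2 and M phase. In quiescent cells the DREAM complex binds a short promoter element, the cell cycle genes homology region or CHR, and holds them silent. In cycling cells B-Myb and FoxM1 act through the same element, together with NF-Y, which binds CCAAT boxes. Because RNA was taken from whole cultures, fewer cycling cells and less mitotic RNA in each cycling cell cannot be told apart in any result below.

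The promoters of the genes were read first, since the sequence played no part in listing them. The RefSeq table of mouse promoters (GRCm38.p6, 250 bases before to 50 bases after each transcript start) held 38 promoters of 36 of the 45 genes. Aurkb, Ccna2, Cdc25c, Dlgap5, Incenp, Kif20a, Ska1, Spc24 and Tpx2 had no entry. The CHR was searched as TTTGAA or TTCGAA and the CCAAT box as CCAAT, both on either strand. A CHR match was present in 27 of 36 genes (75%), against 21.7% of the 27025 genes of the table. Within 50 bases of the start the share was 69.4% (25 of 36), against 5.29%. A CCAAT box was present in 26 genes (72.2%, against 41.1%), at least 2 of them in 18 (50%, against 13.3%), and both elements in 23 (63.9%, against 9.65%). The matches of both kinds overlapped in 1 gene. A typical E2F site (TTTCCCGC, TTTGGCGC, TTTCGCGC or TTTGCCGC, either strand) was found in 1 gene, Cdk1 (2.78%, against 2.61%). A match to letters is a description and not a measured binding site.

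The 250 bases upstream of the start are given for 5 members, 5′ to 3′ on the strand of the gene, with CHR and CCAAT matches of either strand in capitals. Ccnb2, Ect2, Ube2c and Mki67 have both elements upstream of the start and come from 4 different roles. Each had the largest untreated genotype fall among the members of its role with both elements there and a probe well above background on all arrays. Pttg1 is shown beside them because it has neither and was the member whose expression went the other way. Bub1b, which the same rule picked for the spindle checkpoint, is not shown. The 5 genes shown were thus picked with their genotype values known, so no link between elements and expression can be read from them. They lie at chr9:70421555-70421804 (Ccnb2, minus strand), chr3:27153879-27154128 (Ect2, minus), chr2:164769679-164769928 (Ube2c, plus), chr7:135716380-135716629 (Mki67, minus) and chr11:43425982-43426231 (Pttg1, minus), all in GRCm38.p6.
Ccnb2: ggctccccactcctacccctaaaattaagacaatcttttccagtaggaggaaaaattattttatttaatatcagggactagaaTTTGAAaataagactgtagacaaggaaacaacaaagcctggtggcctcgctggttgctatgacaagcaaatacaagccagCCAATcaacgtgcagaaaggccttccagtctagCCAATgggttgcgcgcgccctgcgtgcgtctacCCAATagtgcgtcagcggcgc
Ect2: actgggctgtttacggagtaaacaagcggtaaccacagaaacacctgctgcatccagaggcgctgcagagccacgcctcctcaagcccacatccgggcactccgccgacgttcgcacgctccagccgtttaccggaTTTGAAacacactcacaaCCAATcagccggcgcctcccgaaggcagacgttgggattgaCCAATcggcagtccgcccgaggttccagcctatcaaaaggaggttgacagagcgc
Ube2c: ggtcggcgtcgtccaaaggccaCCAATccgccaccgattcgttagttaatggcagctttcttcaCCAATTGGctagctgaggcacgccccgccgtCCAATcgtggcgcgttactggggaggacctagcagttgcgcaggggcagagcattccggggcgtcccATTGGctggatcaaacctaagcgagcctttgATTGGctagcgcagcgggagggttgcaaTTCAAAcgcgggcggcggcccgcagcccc
Mki67: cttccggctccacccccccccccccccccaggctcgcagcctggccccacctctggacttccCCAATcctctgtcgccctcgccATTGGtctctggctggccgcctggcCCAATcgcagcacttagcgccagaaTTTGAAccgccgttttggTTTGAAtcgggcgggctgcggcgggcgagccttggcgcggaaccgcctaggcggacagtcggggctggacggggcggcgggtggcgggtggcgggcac
Pttg1: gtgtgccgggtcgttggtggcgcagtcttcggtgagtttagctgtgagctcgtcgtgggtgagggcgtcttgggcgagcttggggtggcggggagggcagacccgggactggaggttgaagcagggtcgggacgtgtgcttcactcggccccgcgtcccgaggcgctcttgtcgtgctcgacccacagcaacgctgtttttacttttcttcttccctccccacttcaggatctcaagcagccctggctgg

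Ccnb2 has 3 CCAAT boxes in this stretch, all in the part nearest the start, and Ube2c has 6, a pair of which overlap. Ccnb2 and Ect2 each have a further CHR match in the 50 bases after the start, outside the printed stretch. Mki67 carries 2 CHR matches close together, downstream of its 3 CCAAT boxes. In most members a CHR match lies close to the start, often just inside the transcript. The windows below show 24 bases around the CHR match nearest the start for 13 further members, with the match in capitals. TTCAAA is TTTGAA read on the opposite strand.
Cdk1: cgcggcgagTTTGAAactgctggc
Plk1: agcgccgcgTTTGAAttcggggag
Aurka: aggagaaccTTTGAAttgtaacgg
Cenpa: gggtgatttTTTGAActgctggcg
Cenpf: ggcgggcagTTTGAAtcgctcgtg
Ndc80: actttaaaaTTCAAAccgccttgg
Bub1: cgcggggaaTTCGAAtcgccggcg
Ttk: cggggaaatTTCAAAcgtgtttcc
Kif4: tgggatcaaTTTGAAacttggcgg
Hmmr: tgaggtaaaTTTGAAttcaggcga
Kif23: attggcctgTTTGAAatgcgccgg
Cdc20: cagttgggtTTTGAAggagccaat
Top2a: agataaaggTTCAAAtgaaactag

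The first base of the match lay 15 bases upstream of the start in Cdk1, 18 in Cdc20 and 23 in Top2a. It lay past the start in the other 10, from 3 bases in Cenpf and Kif23 to 33 in Aurka. Among members without a window here, the nearest match began upstream in Espl1, Kif11, Kif2c, Mki67, Prc1, Ska3 and Ube2c. The farthest of these was 103 bases upstream, in Kif2c. Past the start it lay in Anln, Bub1b, Ccnb2, Cdca8, Ect2, Racgap1 and Spc25. In the 25 bases after the start, CHR matches numbered 34.2 per 100 member promoters, against 1.44 per 100 promoters of the whole table. CCAAT boxes were most frequent in the 100 bases before the start, with 21.1 to 34.2 per 100 member promoters in each bin of 25 bases there, against 4.15 to 7.2. The CHR was absent from the windows of Aunip, Birc5, Ccnb1, Cenpe, Mad2l1, Nek2, Nuf2, Nusap1 and Pttg1, and neither element was found in 6 of these, Aunip, Birc5, Mad2l1, Nuf2, Nusap1 and Pttg1. Lack of a match says only that these letters are not in this window.

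**Figure D1:**
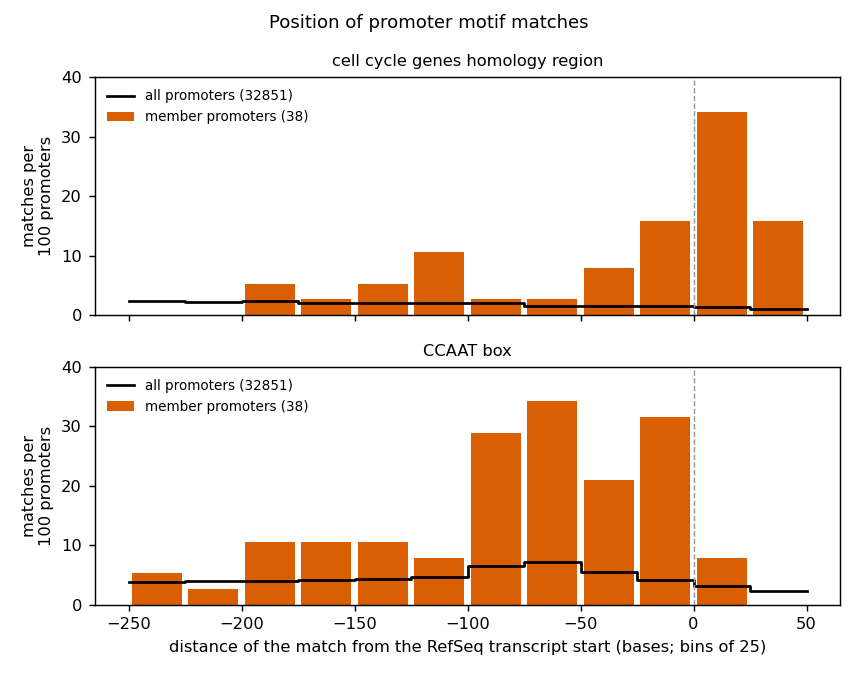
Matches of the CHR (top) and the CCAAT box (bottom) per 100 promoters, in bins of 25 bases by distance from the RefSeq transcript start (0, dashed line). Bars are the 38 promoters of 36 mitotic genes and the black line is all 32851 promoters of the table. CHR matches of the mitotic genes peak just past the start, at 34.2 per 100, and CCAAT boxes between 100 bases upstream and the start.

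Levels are log2 intensities counted from the 75th percentile of their array, which is 0, and a difference is Drp1LiKO minus control unless stated. A gene counts as lower or changed when the difference is at least 2-fold, which is 1 log2 unit, and its probe is well above background on at least 1 of the arrays compared. Dnm1l, the targeted gene, read 2.42 in untreated control and 1.07 in untreated Drp1LiKO cells, and 2.43 and 1.01 with palmitate, lower in both Drp1LiKO arrays. Between 44.7% and 51.1% of probes were well above background on an array. Hepatocyte markers were present on all arrays, 11 or 12 of 12 well above background, with summed levels of 1292 to 1327 times the intensity of the 75th percentile. This sum is mostly Alb and Serpina1a. Of the 12 markers, 9 were higher in untreated Drp1LiKO and 8 with palmitate, with median differences of 0.22 and 0.39. Cyp3a11 differed by 2.23 and 2.31, and Cyp2e1 by −0.66 and −0.72. Markers of other liver cells also moved with genotype. All 16 measured of 18 macrophage markers were higher in untreated Drp1LiKO (13 of 16 with palmitate), and their summed level was 33.7 and 41.5 in the 2 control arrays and 65.2 and 63.7 in the Drp1LiKO arrays. Timd4 and Cx3cr1 did not rise well above background anywhere, whereas Adgre1 and Cd68, among others, did so on all 4 arrays. Adgre1 differed by 2.44 untreated and 2.10 with palmitate, and Cd68 by 2.01 and 1.69. Endothelial markers summed to 1.93 and 1.86 in control and 5.59 and 3.89 in Drp1LiKO. Of 11 measured, 11 were higher untreated and 9 with palmitate, and Vwf was not above background. Stellate cell markers summed to 45.2 and 46.5 against 62.6 and 59.3, with 9 of 9 and 8 of 9 higher and Des not above background. The sums follow the brightest markers, and Acta2, which makes up most of the stellate sum, differed by 0.22 and 0.02. Median differences were 2.21 and 1.69 for macrophage, 1.98 and 1.05 for endothelial and 3.03 and 2.44 for stellate markers. Over those well above background on both arrays they were 2.09 and 1.57, 1.47 and 1.27, and 1.11 and 1.61. Fetal liver and progenitor markers, 6 of 8 measured, summed to 69.9 and 69.6 in control and 49.8 and 62.0 in Drp1LiKO, and cholangiocyte markers, 5 of 7, to 61.1 and 57.8 against 42.3 and 44.2. Lymphocyte markers, 4 of 10 measured, summed to 2.77 and 3.32 in control and 2.25 and 3.10 in Drp1LiKO, and neutrophil markers, 4 of 7, to 35.5 and 40.7 against 37.0 and 42.8. The part of these shifts in the results below was not tested. Both untreated arrays lie on 1 slide and both palmitate arrays on another, so each genotype comparison was made within a slide, while palmitate and slide cannot be told apart.

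Mitotic genes were lower in Drp1LiKO hepatocytes, with or without palmitate. In untreated cells 40 of the 45 genes were at least 2-fold lower, where 5.58% of 19875 genes were so, and with palmitate 37 of 45, where 4.26% of 18890 were so. The same 37 genes were lower in both, a pattern seen in 1.98% of genes. These shares show the background, and nothing is read from the excess, since the genotype contrast was known when the genes were listed. With normexp background correction, whose offset shrinks differences of dim probes, the counts were 31 and 28 and the medians −1.19 and −1.10, and 44 genes stayed below 0 in each condition. Without it the median difference was −1.74 untreated and −1.62 with palmitate, beside −0.02 and −0.03 over all genes. The median level of the 45 genes was 0.31 in untreated control, −1.21 in untreated Drp1LiKO, 0.32 in control with palmitate and −1.05 in Drp1LiKO with palmitate. Both control arrays lay above both Drp1LiKO arrays for 44 of the 45 genes, an order that 31.5% of all genes had. The exception was Pttg1. The scanner software gives each spot an error estimate, from which the error of a difference between 2 arrays was 0.20 to 0.36 log2 units for these genes untreated and up to 0.46 with palmitate. All 45 genotype differences exceeded 2 such errors in both conditions. This error covers the spot and not the mouse or the culture.

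**Figure D2:**
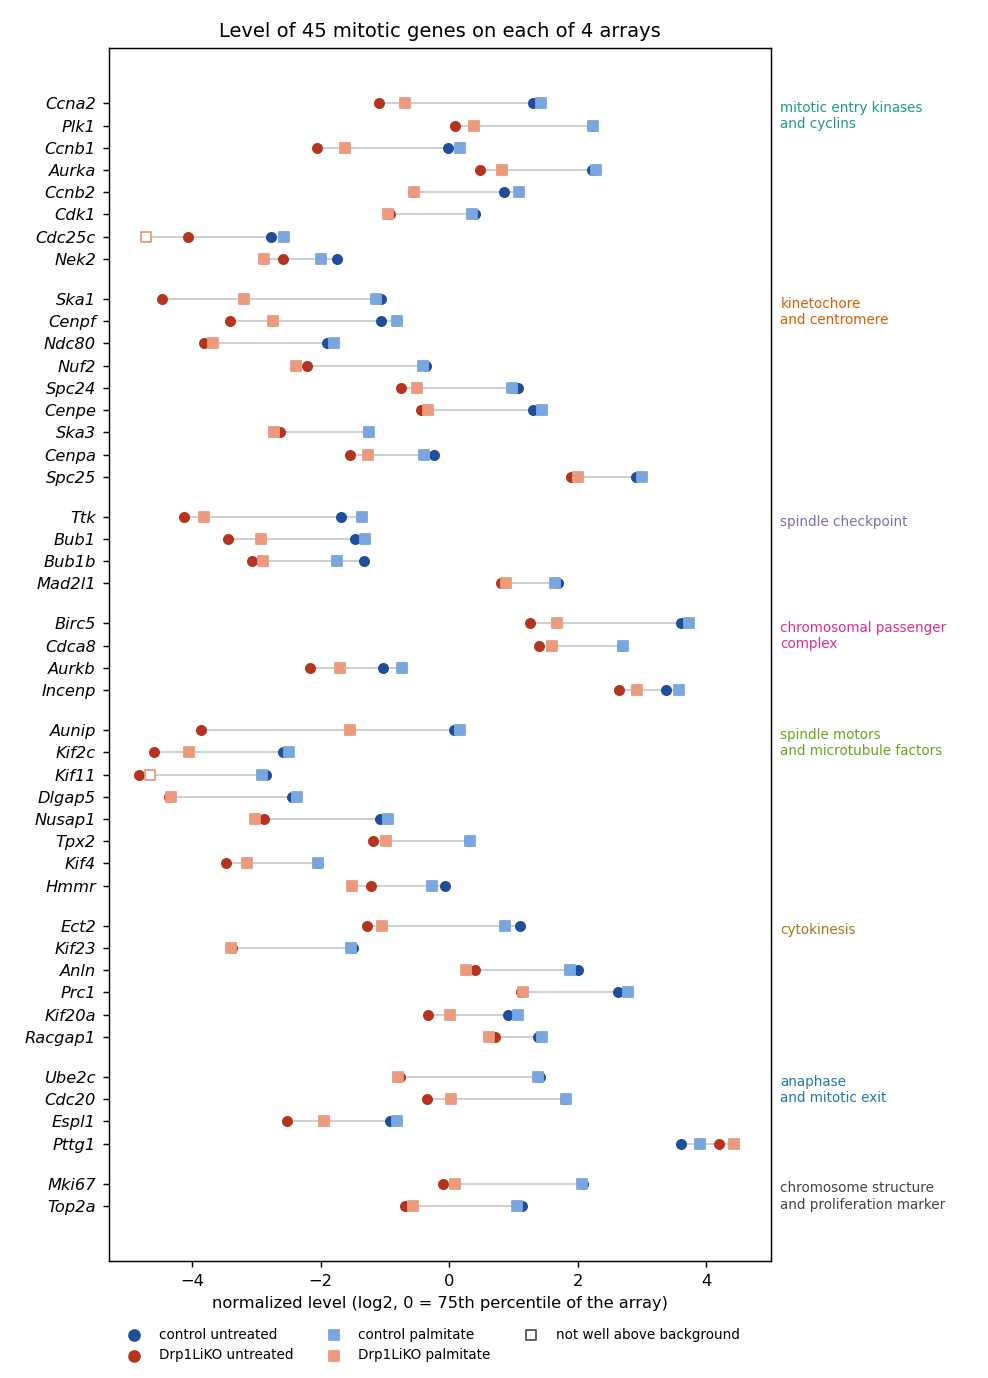
Normalized level (log2, 0 is the 75th percentile of the array) of each of the 45 genes on the 4 arrays, 1 row per gene, grouped by role and ordered by the untreated genotype difference. Blue points are control, red points Drp1LiKO, circles untreated, squares with palmitate, and open squares are not well above background. In every row but that of Pttg1 both red points lie left of both blue points.

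The kinases and cyclins of mitotic entry drive a cell from G2 into M phase, and 7 of these 8 genes were at least 2-fold lower in each condition, with medians of −1.57 untreated and −1.71 with palmitate. Cyclin A2, Ccna2, which partners Cdk1 and Cdk2, read 1.31 in untreated control, −1.09 in untreated Drp1LiKO, 1.43 in control with palmitate and −0.68 in Drp1LiKO with palmitate. Its difference of −2.40, or 5.28-fold, was the largest of this group in untreated cells, it was −2.12 with palmitate, and a second probe gave −2.33 and −2.05. Polo-like kinase 1, Plk1, which acts at centrosomes, kinetochores and the midzone, read 2.23, 0.09, 2.23 and 0.38 in the same order. The control values matched to the second decimal, and the difference was −2.13 untreated and −1.85 with palmitate. Aurka, the centrosomal Aurora kinase, read 2.21, 0.48, 2.28 and 0.82, a difference of −1.73 and −1.47. Cyclin B1, Ccnb1, the activating partner of Cdk1, read −0.02, −2.06, 0.17 and −1.63. The lower control level lay 1.60 above the higher Drp1LiKO level. The dimmer Ccnb1 probes, both well above background on all arrays, gave −1.87 and −1.43 untreated but −0.68 and −1.05 with palmitate, so the size of the Ccnb1 difference with palmitate depended on the probe. Cdk1 itself differed by −1.33 and −1.32, and Ccnb2, the second B-type cyclin, by −1.41 and −1.64. Cdc25c, the phosphatase that activates Cdk1, differed by −1.28 untreated, and with palmitate it was at least 3.87-fold lower, its Drp1LiKO probe not being well above background. Nek2, a centrosome-separating kinase, had the smallest difference of the group: −1.75, −2.59, −1.99 and −2.88 on the 4 arrays, thus −0.85 and −0.88, under 2-fold in both conditions.

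Kinetochores join the centromere of each chromosome to spindle microtubules. All 9 genes of this group were at least 2-fold lower untreated and 7 with palmitate, with medians of −1.81 and −1.76. Within the NDC80 complex, the 4-subunit coupler that grips the microtubule, Ndc80 differed by −1.91 and −1.88, Nuf2 by −1.86 and −1.98, Spc24 by −1.81 and −1.48, and Spc25 by −1.01 and −0.99. Spc25 read 2.90 in untreated control, 1.89 in untreated Drp1LiKO, 2.99 in control with palmitate and 2.00 in Drp1LiKO with palmitate. It had the smallest difference of the group and lay just inside the 2-fold limit untreated and just outside it with palmitate. Cenpe, a kinetochore motor that brings chromosomes to the metaphase plate, read 1.30, −0.44, 1.44 and −0.33. The lower control value lay 1.63 above the higher Drp1LiKO value. Cenpf, a large G2 and M phase protein of the outer kinetochore, differed by −2.34 and −1.92, and Cenpa, the histone H3 variant that marks the centromere, by −1.30 and −0.87. Ska1 and Ska3, subunits of the complex that stabilises kinetochore attachment in anaphase, differed by −3.41 and −1.37 untreated and by −2.05 and −1.48 with palmitate. Ska1 read −1.06, −4.47, −1.14 and −3.19. Its control arrays were close together, and its untreated Drp1LiKO array was 1.27 below its Drp1LiKO palmitate array. Under normexp the Ska1 difference was −1.88 untreated and −1.27 with palmitate.

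The spindle checkpoint delays anaphase until every kinetochore is attached, and 3 of its 4 genes were lower in both conditions (medians −1.86 and −1.39). Ttk, the Mps1 kinase that starts checkpoint signalling, had the largest difference, reading −1.69, −4.13, −1.35 and −3.82, thus −2.44 and −2.47. Its Drp1LiKO signals were dim, and under normexp the Ttk difference was −1.37 untreated and −1.41 with palmitate. Bub1b, which encodes BubR1 of the mitotic checkpoint complex, read −1.33, −3.08, −1.74 and −2.90, a difference of −1.74 untreated and −1.16 with palmitate. The smaller value goes with a lower control palmitate array. Bub1, the kinase that recruits it, differed by −1.98 and −1.62. Mad2l1, the inhibitor of the anaphase-promoting complex, read 1.69, 0.81, 1.65 and 0.88, and its differences of −0.88 and −0.76 stayed under 2-fold, although the genotypes did not overlap.

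The chromosomal passenger complex corrects wrong attachments and later directs the cleavage furrow. Its 4 genes spread widely: Birc5 differed by −2.35 and −2.05, Cdca8 by −1.30 and −1.11, Aurkb by −1.13 and −0.97, and Incenp by −0.74 and −0.64. Birc5, which encodes survivin, read 3.61 and 3.72 in the control arrays and 1.26 and 1.68 in the Drp1LiKO arrays, 5.08-fold and 4.13-fold lower. Incenp, the scaffold of the complex, read 3.38 and 3.57 in control and 2.63 and 2.93 in Drp1LiKO, 1.67-fold and 1.56-fold lower. Subunits of 1 complex thus differed in size of change by more than 1 log2 unit, which is above the spot error but has no replicate behind it.

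Spindle motors and microtubule factors build the bipolar spindle, and all 8 were at least 2-fold lower in both conditions (medians −1.86 and −1.63). Under normexp 5 of them, Dlgap5, Hmmr, Kif11, Kif2c and Kif4, came under 2-fold, at −0.79 to −0.96 untreated and −0.67 to −0.99 with palmitate. Tpx2, the activator of Aurora A on microtubules, read 0.31, −1.18, 0.32 and −0.99, a difference of −1.49 and −1.31. Hmmr, a spindle pole protein, read −0.07, −1.21, −0.27 and −1.52 and had the smallest difference of the group untreated, −1.14. Its other 2 measured probes gave −2.06 each. Kif11, the motor that pushes spindle poles apart, differed by −1.97 untreated and was at least 3.05-fold lower with palmitate, the Drp1LiKO palmitate probe not being well above background. Kif2c, a microtubule depolymerase, differed by −2.02 and −1.55, and Kif4, a chromosome-bound motor, by −1.43 and −1.10. The microtubule binders Nusap1 and Dlgap5 differed by −1.81 and −1.91 untreated and by −2.08 and −1.96 with palmitate. Aunip, which binds Aurora A at the spindle pole, had the largest difference of all 45 genes, reading 0.07 in untreated control, −3.86 in untreated Drp1LiKO, 0.16 in control with palmitate and −1.54 in Drp1LiKO with palmitate. The difference of −3.93 was 15.3-fold, against 3.25-fold (−1.70) with palmitate, and under normexp it was −2.64 and −1.38. The excess over the other members comes from the untreated Drp1LiKO array alone. Aunip and Ska1 have 1 probe each on the array, so no second probe could be read for either.

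Cytokinesis genes split the daughter cells, and 5 of 6 were lower in both conditions (medians −1.55 and −1.62). Ect2, the exchange factor that activates RhoA at the furrow, read 1.09, −1.28, 0.86 and −1.05 and had the largest difference, −2.38 untreated and −1.91 with palmitate. A second Ect2 probe read −1.47, −1.51, −1.74 and −3.59, so it showed a difference of −0.04 untreated and −1.85 with palmitate. The untreated Ect2 difference thus rests on 1 probe, whereas both probes were lower with palmitate. Prc1, the bundler of midzone microtubules, read 2.62, 1.12, 2.79 and 1.15, and Anln, a furrow scaffold, 2.00, 0.40, 1.88 and 0.27. In both genes the control arrays lay above the Drp1LiKO arrays, with a gap of 1.47 in Prc1 and 1.48 in Anln. Kif20a, a midzone motor, differed by −1.25 and −1.07. Kif23 and Racgap1 form the centralspindlin complex. Kif23 read −1.49, −3.38, −1.53 and −3.40, a difference of −1.88 and −1.87. Of its other probes, 1 gave −1.33 and −1.19, and 1 near the background read −4.36, −3.48, −3.63 and −3.59, with differences of 0.88 and 0.04. Racgap1 read 1.39, 0.71, 1.44 and 0.62, and its difference was −0.68 untreated, the smallest of the 44 genes below 0, and −0.82 with palmitate.

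Anaphase and mitotic exit rest on the destruction of cyclin B and securin. Cdc20, which activates the anaphase-promoting complex, read 1.80, −0.35, 1.81 and 0.02, and Ube2c, the E2 enzyme that works with that complex, read 1.41, −0.77, 1.38 and −0.81. Ube2c was 4.53-fold lower untreated and 4.55-fold lower with palmitate. Espl1, the separase that cuts cohesin, differed by −1.60 and −1.13. Pttg1 encodes securin, the inhibitor of separase. It read 3.61 in untreated control, 4.20 in untreated Drp1LiKO, 3.90 in control with palmitate and 4.43 in Drp1LiKO with palmitate, so both Drp1LiKO arrays lay above both control arrays, by 1.51-fold and 1.44-fold. A second, dimmer Pttg1 probe gave 0.51 untreated and 0.07 with palmitate. Securin and separase, which act as a pair, therefore lay on opposite sides of 0. Top2a, the topoisomerase that untangles sister chromatids, read 1.13, −0.69, 1.05 and −0.56, and Mki67, the proliferation marker that coats mitotic chromosomes, read 2.08, −0.09, 2.06 and 0.09. Both were lower in each condition, Mki67 by 4.50-fold and 3.92-fold.

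The 2 genotype comparisons use different arrays, but the genes were listed with both known, and the labels do not say whether the cultures of a genotype came from different mice. Their agreement is therefore given as a description only. Across the 45 genes, which share the arrays and are not independent, the untreated and palmitate differences correlated with r = 0.786 (rho 0.807), or 0.818 (0.879) over the 43 that were well above background throughout. The values of a gene differed by a median of 0.20, a gap that carries the spot errors of all 4 arrays, and by at most 2.23, for Aunip. Ttk, Ube2c, Anln, Cdk1 and Kif23 were among the genes on the line of equality, whereas Aunip and Ska1 were lower untreated by more than 1 log2 unit.

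**Figure D3:**
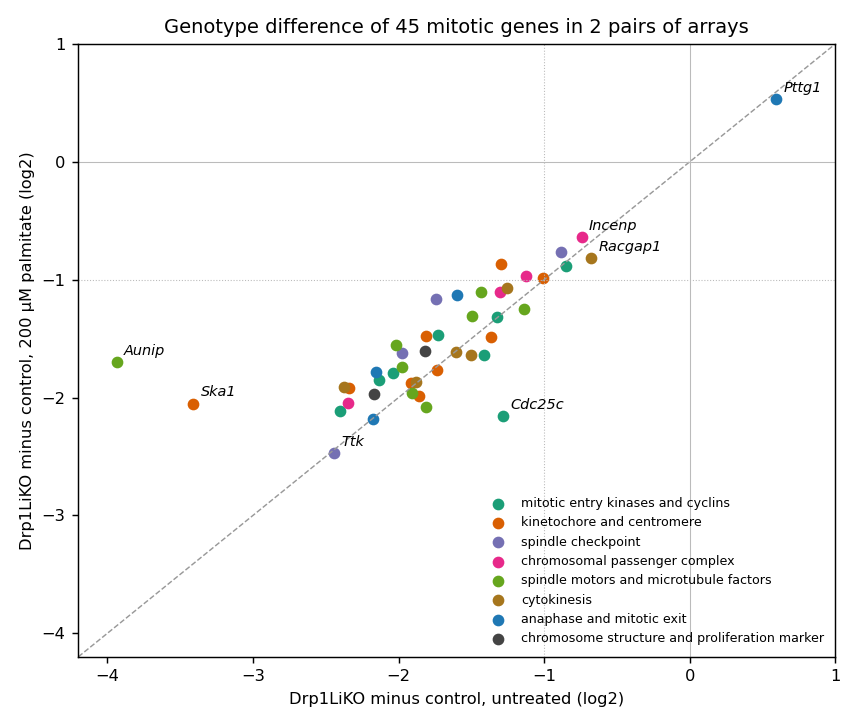
Difference between Drp1LiKO and control (log2) of the 45 genes in untreated cells (x axis) and with palmitate (y axis), 1 point per gene, coloured by role. The dashed line is equality and dotted lines mark a 2-fold lower level; Cdc25c and Kif11 were not well above background on the Drp1LiKO palmitate array. Most points lie near the line between −0.6 and −2.5, Pttg1 is the 1 gene above 0, and Aunip and Ska1 lie far to the left.

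Second probes read the same RNA on the same arrays, so they check the main probe and not the genotype difference. The 45 genes have 85 probes, 13 of which were never well above background. In untreated cells 23 second probes of 18 genes were well above background on both arrays. The sign matched that of the main probe for 22 of them, with a median gap of 0.31. With palmitate it matched for 20 of 21 second probes, of 17 genes, with a median gap of 0.16. The mismatch in each case was the dim Kif23 probe.

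On the palmitate arrays most mitotic genes read near their untreated levels, although these arrays lie on another slide and the 2 cannot be told apart. In control cells 0 of 45 changed at least 2-fold, beside 5.7% of all genes, or 1.11% of those that were well above background on both. The difference of palmitate minus untreated ranged from −0.41 (Bub1b) to 0.34 (Ttk) with a median of 0.06. None of these exceeded 2 spot errors. In Drp1LiKO cells 2 of 45 changed, beside 7.04% of all genes, or 2.42% of those well above background on both arrays, and both were higher with palmitate, Aunip by 2.32 and Ska1 by 1.27. The median was 0.19, with 34 of 45 above 0, and 8 genes exceeded 2 spot errors. All genes had medians of 0.01 in control and 0.00 in Drp1LiKO. A count of 2 among 45 is near the background and is not read as a result about these genes. Under normexp Ska1 came under 2-fold, at 0.58, and Aunip was at 1.32.

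The response of Drp1LiKO minus that of control differed at least 2-fold for 2 of the 45 genes, Aunip (2.23) and Ska1 (1.36), beside 10.8% of all genes, or 1.79% of those well above background on all 4, a class that holds both. Under normexp the values were 1.25 and 0.61. The median was 0.18, beside −0.00 over all genes, and 29 of the 43 that were well above background throughout lay above 0. Both named genes were lowest on the untreated Drp1LiKO array, which also enters their untreated genotype difference. These values have no replicate spread to be set against.

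**Figure D4:**
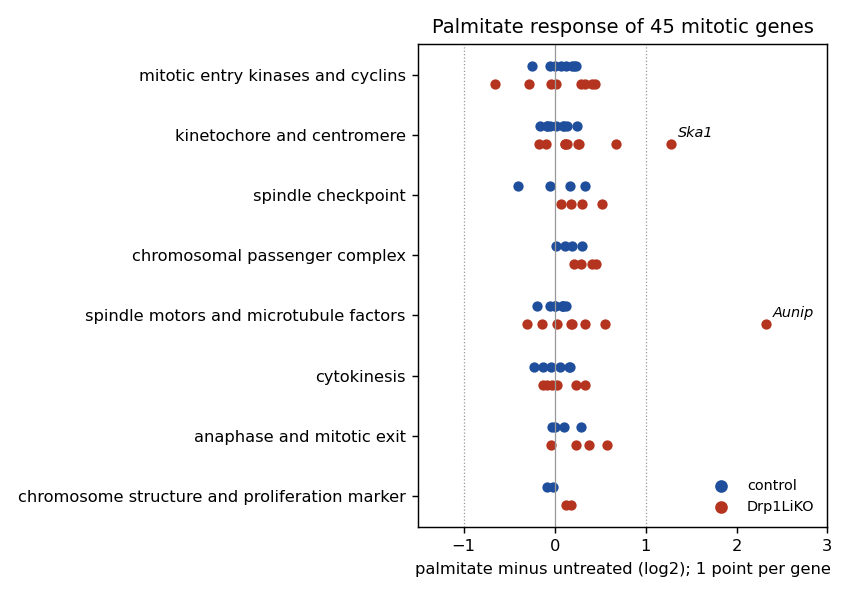
Palmitate minus untreated (log2) of each of the 45 genes, by role, in control (blue) and Drp1LiKO cells (red), 1 point per gene. Dotted lines mark a 2-fold change. All control points lie between −0.41 and 0.34, and 2 red points, Aunip and Ska1, lie past the 2-fold line.

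Other genes of the division machinery were read from lists chosen by function. Among other mitotic genes, such as further centromere proteins, condensin subunits and kinesins, 45 of 76 (59.2%) were at least 2-fold lower untreated and 41 of 72 (56.9%) with palmitate, with medians of −1.14 and −1.06. Shcbp1, a midbody protein, read 0.32, −1.94, 0.42 and −1.54. Its difference of −2.27 and −1.96 was the largest in that list among genes measured on both untreated arrays. Zwint, a kinetochore protein, lay at 0.18 and 0.19, and the abundant tubulin Tubb5 at 0.00 and −0.09. Cit, the citron kinase of cytokinesis, was 0.48 higher untreated and was not well above background on either palmitate array. The list thus spans genes that were as low as the 45 and genes near 0.

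DNA replication and nucleotide supply genes, which act in S phase before mitosis, were lower by less. At least 2-fold lower were 21 of 58 (36.2%) untreated and 15 of 57 (26.3%) with palmitate, and the medians were −0.80 and −0.75. All 58 lay below 0 untreated. Exo1, a repair nuclease, differed by −2.09 and −1.74, whereas Pcna, the polymerase clamp, differed by −0.50 and −0.54, Mcm6 of the replicative helicase by −0.20 and −0.37, and Pold1, the catalytic subunit of a replicative polymerase, by −0.09 and −0.01. G1 cyclins, their kinases and inhibitors had medians of −0.39 and −0.32, with 2 of 20 lower untreated and 0 of 19 with palmitate. Ccnd2, a D-type cyclin, read 5.11, 4.07, 4.71 and 3.82, a difference of −1.04 and −0.90. Cdk4, its kinase, lay at 0.16 in both conditions, and the inhibitor Cdkn1c at 0.53 and −0.99.

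Lists of genes that are needed in mitosis but also serve non-dividing cells had medians near 0, although single genes moved by more. None of 15 anaphase-promoting complex subunits and partners (0 untreated and 0 with palmitate; medians −0.11 and −0.21) and none of 25 tubulin, dynein and cohesin genes (0 and 0; both medians −0.13) was at least 2-fold lower. Anapc5 differed by −0.32 and −0.38 and Anapc13 by −0.24 and −0.16. Ube2s, the E2 enzyme that extends the ubiquitin chain after Ube2c, lay at 0.96 and −0.27, opposite in sign between the conditions, while Ube2c was lower in both. Tuba1b differed by −0.35 and −0.33, Tuba1c by −0.25 and −0.14, Tubb2b by 0.75 and 0.34 and Tuba4a by −0.55 and −0.20.

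Among 22 transcription regulators of the cell cycle, 5 were lower in both conditions, with list medians of −0.42 and −0.45. By the rule for naming, E2f7, an atypical repressor of the E2F family, read −0.50, −3.21, −0.58 and −3.23, a difference of −2.71 and −2.65. The other 4 are named after their values were seen. Foxm1 read 0.79, −1.34, 0.87 and −0.96, and Mybl2, which encodes B-Myb, 1.54, −0.49, 1.38 and −0.35. Foxm1 and Mybl2 thus lay 1.73 to 2.13 lower, within the range of the mitotic genes, and no relation between them was tested. E2f8 differed by −1.85 and −1.70, and Mybl1 by −1.89 and −1.14. Rbbp4 and Nfyc, the first a MuvB subunit and the second a subunit of NF-Y, differed by −0.28 and −0.06 untreated and by −0.13 and −0.14 with palmitate, and E2f5 by 0.45 and 0.23. Further MuvB subunits, also named after their values were seen, were all under 2-fold lower. Lin9 differed by −0.91 and −0.78, Lin37 by 0.28 and 0.10, Lin52 by −0.45 and −0.24, and Lin54 by −0.39 and −0.46.

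**Figure D5:**
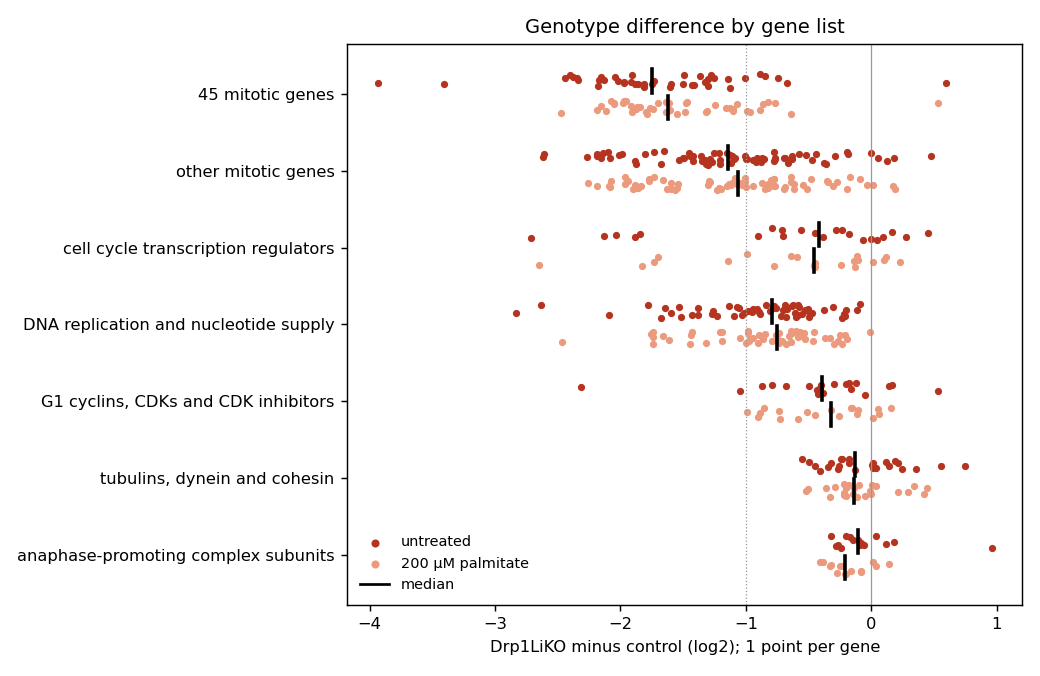
Difference between Drp1LiKO and control (log2) for each tested gene of the 45 mitotic genes and 6 other lists, untreated (dark red) and with palmitate (light red), 1 point per gene, with the median as a black bar. The dotted line marks a 2-fold lower level. Medians run from −1.74 in the 45 genes over −0.80 in replication genes untreated to −0.11 in anaphase-promoting complex subunits.

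The promoter elements were counted in the same lists. A CHR match was present in 65.6% of 64 other mitotic genes, 17.8% of 45 replication genes, 20% of 15 G1 genes, 35.3% of 17 transcription regulators, 21.4% of 14 anaphase-promoting complex genes and 16.7% of 18 tubulin, dynein and cohesin genes. It was thus above the 21.7% of all genes in both mitotic lists and in the regulators, and at or below it in the others. A CCAAT box was present in 72.2% of the 36 genes described here and in 41.1% of all genes. Its share was 68.8% in other mitotic genes, 64.7% in regulators, 57.8% in replication genes and 53.3% in G1 genes. In tubulin, dynein and cohesin genes it was 50%, and in anaphase-promoting complex genes 35.7%. The E2F site was found in 37.8% of replication genes, 29.4% of transcription regulators, 26.7% of G1 genes and 17.2% of other mitotic genes, against 2.78% of the 36 genes described here. Its share was 22.2% in tubulin, dynein and cohesin genes and 0% in anaphase-promoting complex genes. The 6 members with neither element in the window differed by −3.93 (Aunip), −2.35 (Birc5), −1.86 (Nuf2), −1.81 (Nusap1), −0.88 (Mad2l1) and 0.59 (Pttg1) untreated. No link between the elements and the genotype difference was tested.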

How the data were processed

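RNA of each culture was amplified, labelled with Cy3 and hybridised to a whole-genome oligonucleotide array with 62976 spots. The authors deposited 1 scanner table per array, with intensity values on a linear scale (Feature Extraction, 10.7.1.1 in the headers and 9.5.1.1 in the submitters' processing notes), background-subtracted within each array and not scaled between arrays. A second deposited table holds their processed intensities. Its 4 columns have identical sorted values and, over 56603 probes, keep the rank order of the scanner signals, as quantile normalization gives, and it served as an alternative. The label of the untreated control array says its raw data are shared with a sample of another series. Labels and methods name different RNA kits.

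Each array's 75th percentile (intensities of 485, 542, 424 and 468 for untreated control, untreated Drp1LiKO, control palmitate and Drp1LiKO palmitate) was subtracted from the log2 processed signal. A change shared by most transcripts is therefore not visible. Control and outlier spots were left out and repeat spots averaged, and 0 spots were saturated. A gene is its probe with the highest mean level among those well above background on at least 1 array. Where a probe was dim on 1 of the compared arrays, the fold is a lower bound: the dim side was set to its own value or to the dimmest signal still well above background there, whichever was higher. Summed marker levels are sums of linear intensities divided by the 75th percentile intensity.

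Members and lists were chosen with earlier results of these data known. All 45 members are named. Levels on 4 arrays are given for the 2 members of a role with the highest mean level, those with the largest and smallest untreated genotype difference, and those with a discordant second probe. Other lists name at most 4 genes each, the 2 with the highest mean level and the largest rise and fall untreated, and genes beyond these are marked as named after their values were seen. With 1 array per group there is no test and no p-value, and precision is limited by the number of arrays. For 9 results, 9 alternatives were compared by whether a median kept its sign and lay within 1.5 times, or a count within 1.5 times. Promoter positions are of GRCm38.p6. Python 3.11.15 with pandas 2.3.3, R 4.3.3 and limma 3.58.1 (normexp) were used.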

Additional observations from a re-analysis of the deposited data

How the results depend on the processing

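Of 81 recomputed values, 77 stayed within 1.5 times of the reported value with the same direction, including all counts and medians of the genotype differences. Normexp came nearest to that limit, with 31 and 28 members at least 2-fold lower instead of 40 and 37 and medians of −1.19 and −1.10 instead of −1.74 and −1.62. It ended the call of Cdc25c, Dlgap5, Hmmr, Kif11, Kif2c and Kif4 in both conditions, of Aurkb, Ska3 and Spc25 untreated, and of Bub1b, Espl1 and Kif20a with palmitate. The other 4 concern palmitate. Under normexp background correction 1 member changed with palmitate in Drp1LiKO and 1 had a difference in the palmitate response, instead of 2 each. The control palmitate median of 0.06 became 0.0052 with the array median subtracted and 0.0171 with the mean of all probes of a gene. Subtracting the array median moved the median genotype difference of all genes to −0.21 untreated and −0.18 with palmitate, from −0.03 and −0.04, so sizes are relative to that shift. Depth on these arrays is signal over background, which limits Cdc25c, Kif11 and the dim second probes. Other main probes also lay near it in Drp1LiKO, where the dimmest signal well above background was −4.94 untreated and −4.52 with palmitate. Kif2c read −4.60 and −4.04 there, Dlgap5 −4.36 and −4.33, Ttk −4.13 and −3.82, and Ska1 −4.47 untreated. No replicate could be left out. No paired analysis was possible because each group has 1 array.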
